A study of Mus musculus with 28 samples.

Results

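Leukocytes sorted from MC38 tumours of control mice were compared at day 18 and day 6 of tumour growth. The comparison rests on 4 of the 28 arrays of the series, 2 at day 6 and 2 at day 18, taken by tumour line, day and genotype label. This comparison was itself chosen with earlier results of these data known. MC38 is a transplanted mouse colon carcinoma line. The sorted cells carried CD45, the surface phosphatase of haematopoietic cells, so the RNA came from a mixture of macrophages, monocytes, granulocytes, dendritic cells and lymphocytes. Control hosts carried Foxp3Cre-YFP, a Cre recombinase and yellow fluorescent protein expressed from Foxp3, the master gene of regulatory T cells (Treg cells), with an unfloxed Nrp1 gene. A further 4 arrays, 2 per day, came from Nrp1L/LFoxp3Cre-YFP hosts, which carry the same Cre and lose the co-receptor neuropilin-1 from cells that express Foxp3. These hosts are called Nrp1-deleted here, and both kinds of host therefore carry the Foxp3 reporter. The labels give neither the age of the mice nor the number of tumours per array, and they do not say that replicates were separate mice, so the error behind each p-value is that of these arrays and may be technical.

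A growing tumour recruits neutrophils and monocytes from the blood, and monocytes mature in the tissue into macrophages. Macrophages and dendritic cells take up antigen, degrade it in lysosomes and load the peptides on class II molecules of the major histocompatibility complex (MHC), which CD4+ T cells read. Resting and stimulated states of these cells differ in cytokines, chemokines and in the early response genes that are transcribed within minutes of a stimulus.

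Values are log2 expression after robust multi-array averaging (RMA), and a difference of 1 is a doubling. The 2 arrays of a day correlated at 0.993 for day 6 and 0.994 for day 18 over all 45141 probe sets, and arrays of different days at 0.985. Ptprc, which encodes CD45, was at 11.96 and 11.95 at day 6 and at 12.04 and 12.13 at day 18. Nrp1 itself was at 9.06 and 9.16 at day 6 and at 9.88 and 10.02 at day 18. Its rise was 0.84 ± 0.23 (SE from the fit to all 28 arrays, n = 2 per day, limma adjusted p = 0.0185). Foxp3 lay near the background of the array, at 3.08 and 2.88 at day 6 and at 3.43 and 3.07 at day 18. In RNA from mixed cells, fewer cells of a type and less RNA per cell cannot be told apart. No label gives an array batch, and any batch that followed the day cannot be told apart from it.

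Between day 6 and day 18, 752 of 17097 genes rose and 776 fell at an adjusted p below 0.05, which is 4.4% and 4.54% of genes, or 8.94% in all. Of these 1528 called genes, 444 changed at least 2-fold, 175 upward and 269 downward, and the median change of all genes was 0.02. In each called gene the day 6 and day 18 values did not overlap, but neither did they in 52.6% of all genes, so the absence of overlap carries little weight with 2 arrays a day. With arrays centred on their 75th percentile in place of the deposited scale, the split was 955 higher and 624 lower. Without day 6 replicate 1 or replicate 2 the count of called genes was 691 or 711, and without day 18 replicate 1 or replicate 2 it was 697 or 663, of which 648 to 678 were among the 1528. The genes below are grouped in lists by cell type or function, and the lists were chosen with earlier results of these data known. These lists hold 573 measured genes, of which 98 were called, 45 higher and 53 lower at day 18. Each list count below is to be read beside the 8.94% of all genes called. Because of how the lists were chosen, that comparison is a description and no test.

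Most measured genes of the MHC class II pathway rose by day 18. Of 10 measured, 7 rose and 0 fell, beside the 4.4% of all genes that rose, and the median change was 0.94. Cd74, the invariant chain that guides class II molecules to the lysosome, was at 11.17 and 11.19 at day 6 and at 12.31 and 12.25 at day 18. Its rise of 1.10 ± 0.22 (adjusted p = 0.00248) is a 2.15-fold difference, and both later arrays lay above both earlier ones. Ciita, the transactivator that switches on class II genes, was at 6.6 and 6.59 at day 6 and at 7.79 and 7.91 at day 18, a rise of 1.25 ± 0.32 (adjusted p = 0.0129). The arrays of a day differed by no more than 0.12 in either gene, far less than the days did.

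Both the classical chains and the loading factors held rises. H2-Ab1 and H2-Eb1, the beta chains of the I-A and I-E molecules, rose by 0.86 ± 0.25 and 0.96 ± 0.27. H2-Aa, the I-A alpha chain, was among the brightest genes of the arrays already at day 6, with 12.72 and 12.80, and reached 13.36 and 13.29, a difference of 0.57 ± 0.22 that missed the threshold (adjusted p = 0.132). H2-DMb1, a subunit of the DM molecule that exchanges peptides, was at 9.63 and 9.61 at day 6 and at 10.68 and 10.68 at day 18. H2-Ob, a subunit of the DO molecule that restrains DM, was lower in level, at 5.25 and 5.59 and then 6.57 and 6.80, and rose by 1.27 ± 0.34. The partner of H2-Ob did not move with it: H2-Oa was at 7.69 and 7.63 at day 6 and at 7.28 and 7.18 at day 18 (difference -0.42 ± 0.20, adjusted p = 0.242). H2-DMb2 rose by 0.92 ± 0.25, but a second bright probe set of that gene differed by -0.48 and their mean by 0.22, and H2-DMb1 and H2-DMb2 are near copies whose probes may cross-hybridise. When any 1 of the 4 arrays was left out, 1 of the 10 genes was called, while the median change of the list stayed between 0.87 and 1.01. With a robust variance trend 3 of the 10 were called. MHC class I and its processing genes held 0 calls in 10 by limma (1 at an unadjusted p below 0.05), with a median change of 0.09.

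The promoters of the called class II genes H2-DMb1, H2-DMb2, H2-Eb1 and H2-Ob share short elements, which are shown because these genes rose together. No promoter sequence was available for the called genes Cd74, Ciita and H2-Ab1. The sequences are those of RefSeq (build GRCm38.p6), 250 bases before to 50 after the start of the gene, written 5′ to 3′ on the strand of the gene. Capitals mark CCAAT or its reverse complement ATTGG, the Y box bound by NF-Y, and ATGATGC or GCATCAT, letters seen close to it in several of these promoters. H2-DMb1 lies at chr17:34152941-34153240 on the plus strand, H2-Eb1 at chr17:34305617-34305916 on the plus strand and H2-Ob at chr17:34238655-34238954 on the plus strand.
H2-DMb1: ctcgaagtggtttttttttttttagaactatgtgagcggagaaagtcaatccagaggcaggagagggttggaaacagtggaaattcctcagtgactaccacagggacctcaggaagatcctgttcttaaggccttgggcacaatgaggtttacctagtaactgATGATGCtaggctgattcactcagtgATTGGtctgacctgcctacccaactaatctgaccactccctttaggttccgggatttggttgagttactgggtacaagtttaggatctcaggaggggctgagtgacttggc
H2-Eb1: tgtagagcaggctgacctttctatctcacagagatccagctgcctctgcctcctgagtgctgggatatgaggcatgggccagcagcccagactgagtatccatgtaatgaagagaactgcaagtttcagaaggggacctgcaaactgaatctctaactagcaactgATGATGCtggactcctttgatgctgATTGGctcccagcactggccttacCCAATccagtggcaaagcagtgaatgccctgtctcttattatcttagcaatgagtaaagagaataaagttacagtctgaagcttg
H2-Ob: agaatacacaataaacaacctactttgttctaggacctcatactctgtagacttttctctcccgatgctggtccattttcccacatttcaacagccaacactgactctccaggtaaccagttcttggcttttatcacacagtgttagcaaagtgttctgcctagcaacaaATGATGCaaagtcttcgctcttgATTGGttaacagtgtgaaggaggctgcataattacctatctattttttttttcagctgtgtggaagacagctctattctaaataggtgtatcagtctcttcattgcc
In H2-DMb1 the ATGATGC letters and the nearest CCAAT match were separated by 19 bases, in H2-Eb1 by 18 and in H2-Ob by 16. CCAAT in either direction was found in 6 of the 7 class II promoters that the RefSeq table holds for the 10 genes, beside 38.4% of 13605 promoters of measured genes. ATGATGC was chosen after the sequences were seen, and was found in 4 of the 7, beside 1.78% of all promoters. The promoters of H2-Aa and H2-Oa, which were not called, hold CCAAT or its complement and lack these exact letters ATGATGC. That of H2-DMa, also not called, holds neither. Because ATGATGC was picked from these promoters, its split between called and uncalled genes is no test. A match of letters is a description and does not show that a factor was bound.

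Several genes of the last part of the cell cycle rose as well. Of 19 measured genes of G2 phase and mitosis, 9 rose and 0 fell, beside 4.4% of all genes that rose, with a median change of 0.75. Each of the 19 had higher values in both day 18 arrays than in both day 6 arrays. In 52.6% of all genes, too, the days did not overlap, in either direction. Top2a, the topoisomerase that untangles chromosomes, was at 8.91 and 8.90 at day 6 and at 9.72 and 9.83 at day 18, a rise of 0.87 ± 0.22 (adjusted p = 0.0118). Mki67, which coats mitotic chromosomes and marks cycling cells, was at 8.57 and 8.69 and then at 9.34 and 9.56. Bub1b, a kinase of the spindle checkpoint, had the smallest p of the list and rose by 0.87 ± 0.20 (adjusted p = 0.00745). Cenpf, a kinetochore protein, had the largest change of the list, from 5.61 and 6.16 to 6.75 and 7.14. The rises of Bub1, Tpx2, Kif20a, Ccna2 and Birc5 lay between 0.68 and 1.02, and the changes of the 10 genes that were not called between 0.33 and 0.81.

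Genes of DNA replication did not pass the threshold. Of 19 measured S phase genes, 0 were called by limma (4 at an unadjusted p below 0.05), and the median change was 0.26. Mcm3, a subunit of the replicative helicase, was at 7.67 and 7.86 at day 6 and at 8.28 and 8.17 at day 18 (difference 0.46 ± 0.16, adjusted p = 0.0775). Pcna, the sliding clamp of DNA polymerase, was at 11.83 and 11.91 and then at 11.91 and 11.90. The difference between the S phase and mitotic lists was not tested. The mitotic calls rest on all 4 arrays: 0 of 19 genes passed without day 6 replicate 1, 2 without day 6 replicate 2, and 0 without either day 18 array, although the list median stayed between 0.70 and 0.81. With the mean of a gene's probe sets in place of the brightest, 3 of 19 were called, and the changes of Bub1 and Cenpf were then 0.62 and 0.62 without a call.

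The promoters of mitotic genes are known for the cell cycle homology region, whose core the letters below spell, and those of Top2a and Mki67 are shown because both genes rose and hold it. Capitals mark the letters TTTGAA or the reverse complement TTCAAA in RefSeq sequence (GRCm38.p6) of the same window, and CCAAT is left in lower case here. Top2a lies at chr11:99024140-99024439 on the minus strand and Mki67 at chr7:135716330-135716629 on the minus strand.
Top2a: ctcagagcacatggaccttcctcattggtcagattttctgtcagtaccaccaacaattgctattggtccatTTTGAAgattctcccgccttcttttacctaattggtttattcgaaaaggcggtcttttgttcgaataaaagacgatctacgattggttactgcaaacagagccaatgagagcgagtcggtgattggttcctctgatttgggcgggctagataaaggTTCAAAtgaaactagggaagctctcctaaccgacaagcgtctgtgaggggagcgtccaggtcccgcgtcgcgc
Mki67: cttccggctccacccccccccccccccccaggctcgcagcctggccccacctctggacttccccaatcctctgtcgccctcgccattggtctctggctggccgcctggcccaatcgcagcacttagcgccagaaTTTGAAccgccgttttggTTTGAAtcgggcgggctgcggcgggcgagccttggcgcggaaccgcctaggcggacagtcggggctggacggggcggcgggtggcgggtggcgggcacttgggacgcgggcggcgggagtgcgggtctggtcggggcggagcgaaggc
These letters were found in 11 of the 15 mitotic promoters that the table holds for the 19 genes, beside 13.3% of the promoters of all measured genes, and in 0 of the 7 class II promoters. CCAAT in either direction was found in 13 of the 15. Bub1 and Birc5, which rose, and Cenpe and Nusap1, which were not called, hold none of these letters in this window. Bub1b and Cenpf, which rose, hold them, and so do Cdk1, Ccnb2, Plk1, Aurka, Kif11, Cdc20 and Ttk, which were not called. Whether the letters go with the rise was not tested.

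**Figure D1:**
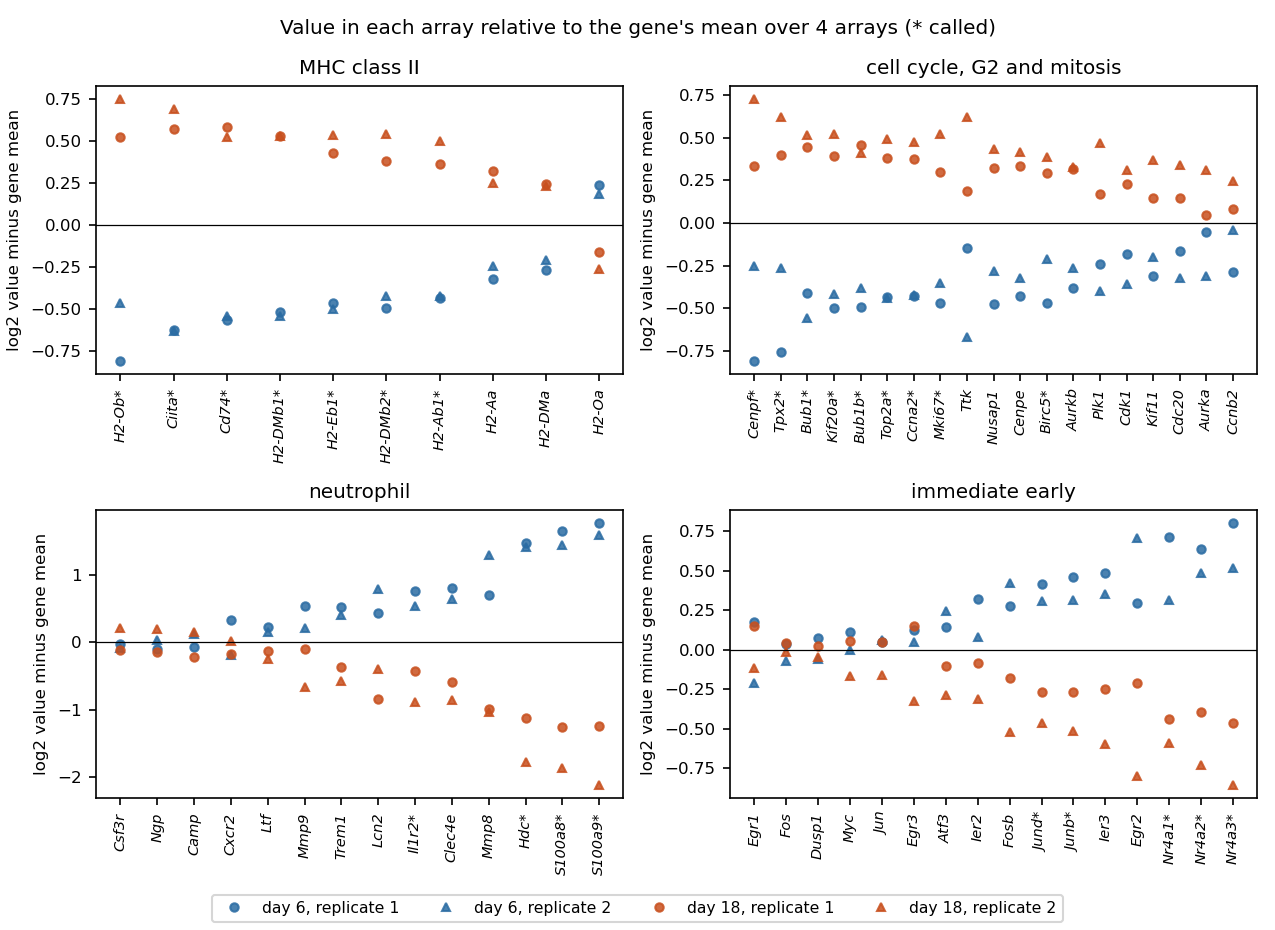
Each array's log2 value minus the mean of that gene over the 4 control arrays, for 4 gene lists; circles are replicate 1 and triangles replicate 2, blue is day 6 and orange day 18, and an asterisk marks genes with an adjusted p below 0.05. The 19 mitotic genes lie above 0 in both day 18 arrays, 9 of 10 class II genes do too, and the neutrophil and immediate early lists run the other way for their called members.

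Macrophage and lysosomal genes were mostly higher at day 18, few of them beyond the threshold. Of 16 macrophage markers, 2 rose and 0 fell, with a median change of 0.59 and positive differences in 14. Mpeg1, a pore-forming protein of phagocytes, was at 11.96 and 11.91 at day 6 and at 12.56 and 12.56 at day 18 (0.63 ± 0.19, adjusted p = 0.0402). Maf, a transcription factor of mature macrophages, rose by 0.69 ± 0.21 (adjusted p = 0.0432). Mertk, a receptor for dying cells, had the largest difference of the list, from 7.28 and 7.36 to 8.45 and 8.44. Its larger error, pooled over all 28 arrays, left it at an adjusted p of 0.0502. Adgre1, which encodes F4/80, was at 10.36 and 10.39 and then at 11.38 and 11.28 (adjusted p = 0.0699). Itgam, which encodes CD11b and is shared by monocytes, neutrophils and macrophages, had a difference of 0.00 ± 0.26. Without any 1 of the 4 arrays, 0 of the 16 were called, and the list median stayed between 0.57 and 0.65.

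Among 14 lysosomal genes, 5 rose and 0 fell, with a median of 0.48. Hexa, a subunit of beta-hexosaminidase, was at 10.79 and 10.84 at day 6 and at 11.60 and 11.49 at day 18 (0.73 ± 0.14, adjusted p = 0.00125). The proteases Ctsb, Ctsa and Ctsd rose by 0.53 ± 0.12, 0.50 ± 0.12 and 0.59 ± 0.15, and the membrane protein Lamp1 by 0.42 ± 0.11. With the mean of probe sets Ctsa differed by 0.22 and 3 genes of the list were called. Ctss, the cathepsin that trims the invariant chain, was at 13.12 and 13.14 and then at 13.30 and 13.30, close to the top of the scale. Leaving out any 1 array left 2 lysosomal calls. Lipa, the lysosomal lipase that frees cholesterol from its esters, was at 7.88 and 7.88 at day 6 and at 9.0 and 8.98 at day 18. Its rise of 1.11 ± 0.13 (adjusted p = 1.53e-05) had a smaller adjusted p than any gene of the lysosomal list. Nr1h3, the sterol receptor LXR alpha, rose by 1.36 ± 0.30, from 3.84 and 4.33 to 5.41 and 5.47.

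Complement and Toll-like receptor genes changed in part. Of 15 complement genes, 2 rose and 0 fell: C4b, a component of the classical pathway, from 5.83 and 5.99 to 7.53 and 7.91, and Itgax, the CD11c chain of complement receptor 4, from 7.99 and 7.81 to 8.97 and 9.10. The changes were 1.82 ± 0.36 and 1.14 ± 0.24 (adjusted p = 0.00209 and 0.00312), and 2 genes of this list were called without each array in turn. C1qa, C1qb and C1qc, the subunits of C1q, differed by 0.57, 0.37 and 0.79 and were not called. Of 13 Toll-like receptor genes, 4 rose and 1 fell. Unc93b1, the chaperone that delivers nucleic acid sensors to endosomes, was at 8.84 and 8.90 and then at 9.78 and 9.88 (0.96 ± 0.18, adjusted p = 0.000942). Tlr3, an endosomal sensor of double-stranded RNA, rose by 0.98 ± 0.24, the lipopeptide receptor chain Tlr1 by 0.82 ± 0.22 and Tlr8 by 0.90 ± 0.27, whereas the adaptor Myd88 fell by 0.41 ± 0.12. When any 1 array was left out, 1 Toll-like receptor gene was called.

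Both receptor chains for TGF-beta, a cytokine that restrains immune cells and shapes tissue macrophages, rose in their brightest probe sets. Tgfbr2, the ligand-binding chain, was at 9.74 and 9.68 at day 6 and at 10.47 and 10.48 at day 18 (0.77 ± 0.11, adjusted p = 7.74e-05), but the mean of the Tgfbr2 probe sets differed by 0.27 (adjusted p = 0.261). Tgfbr1, the signalling chain, was at 9.94 and 9.63 and then at 10.64 and 10.57 (0.82 ± 0.20, adjusted p = 0.0109). Ltbp3, which binds latent TGF-beta, also rose (0.39 and not called with the mean of probe sets), and Smad7, the inhibitor induced by the pathway, fell by 0.74 ± 0.22. The ligand Tgfb1 differed by -0.06 ± 0.16. With 3 of 12 genes up and 1 down the list as a whole had no direction: its median was 0.13, and -0.05 with the mean of probe sets. Without day 6 replicate 1 there were 2 calls in this list, and without any other array 1.

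Some genes of neutrophils fell by day 18. Of 14 measured, 4 fell and 0 rose, beside 4.54% of all genes that fell, and the median change was -1.08. S100a9, a calcium-binding alarmin that fills the neutrophil cytosol, was at 10.29 and 10.11 at day 6 and at 7.28 and 6.41 at day 18, a fall of 3.35 ± 0.87 (adjusted p = 0.015). Its partner S100a8 was at 9.73 and 9.53 and then at 6.82 and 6.22 (adjusted p = 0.0355). Both genes were lower in each later array by more than 2 units, and the later arrays also differed from each other by more than the earlier ones did. Hdc, the enzyme that makes histamine in granulocytes and mast cells, fell by 2.90 ± 0.69, and Il1r2, the decoy receptor for interleukin 1, by 1.30 ± 0.35. Mmp8, Clec4e and Lcn2 differed by -2.01, -1.45 and -1.22 and were not called. The granule genes Camp, Ngp and Ltf lay between 3.11 and 3.90 in the 4 arrays, near background, and Csf3r, the receptor for granulocyte colony-stimulating factor, differed by 0.10 ± 0.21. Without day 18 replicate 1, 2 of the 14 were called, without any other array 0, and with a robust variance trend 1.

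Of 12 monocyte markers, 4 fell and 1 rose. Plac8, high in classical monocytes, was at 12.31 and 12.30 at day 6 and at 10.89 and 11.21 at day 18 (fall of 1.26 ± 0.19, adjusted p = 0.000167). Ccr2, the receptor by which monocytes leave the marrow, was at 10.89 and 10.94 and then at 10.40 and 10.06 (adjusted p = 0.0298), and Ifitm6 fell by 1.81 ± 0.39. The 4th, Nr4a1, is also an immediate early gene. Treml4, which marks nonclassical monocytes and some macrophages, rose by 1.24 ± 0.37. Without any 1 array 3 monocyte genes fell. Csf1, the growth factor of monocytes and macrophages, fell by 1.00 ± 0.30 and lost its call without any 1 array and with the mean of probe sets (-0.65). Ccl2, the ligand of Ccr2, was at 12.25 and 12.27 and then at 11.59 and 11.80 without passing the threshold.

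Genes induced in macrophages by interleukin 4 and markers of eosinophils, which travel with such a response, fell in part. Ccl24, an attractant of eosinophils, showed the largest fall among called genes: 8.08 and 9.70 at day 6 against 4.33 and 3.95 at day 18, a fall of 4.75 ± 0.72, or 27.0-fold (adjusted p = 0.000134). The 2 early arrays differed by more than 1.5 units, yet the lower of them stood far above both later ones. Mgl2, a lectin of macrophages and dendritic cells, was at 7.57 and 8.45 and then at 6.21 and 5.25 (adjusted p = 0.0236), and Pdcd1lg2, which encodes the PD-1 ligand PD-L2, fell by 1.39 ± 0.32. Arg1, the arginase of such macrophages, was at 13.33 and 13.33 and then at 12.64 and 12.64, and Mrc1, the mannose receptor, at 9.86 and 10.49 and then at 10.70 and 10.30. Neither was called. In total 3 of 17 genes fell and 1 rose (Fxyd2, 0.82 ± 0.22, or 0.33 and not called with the mean of probe sets), with a median of -0.47. Of 6 eosinophil genes 2 fell: Alox15, a lipoxygenase, from 5.39 and 5.49 to 3.10 and 3.09 (adjusted p = 0.00014), and Prg2, which encodes the major basic protein, from 3.76 and 3.70 to 2.89 and 2.88. The day 18 values of both lie at background. Without day 6 replicate 2, 1 gene of the macrophage list fell, and without any other array 2. Leaving out any 1 array left 1 eosinophil call.

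Immediate early genes, transcribed within minutes of a stimulus, differed by member. Of 16 measured, 5 fell and 0 rose, with a median of -0.55. The 3 orphan nuclear receptors fell: Nr4a1 from 11.62 and 11.22 to 10.47 and 10.32, Nr4a2 from 10.52 and 10.37 to 9.49 and 9.16, and Nr4a3 from 10.01 and 9.73 to 8.75 and 8.36. Their falls were 1.03 ± 0.17, 1.12 ± 0.17 and 1.32 ± 0.32 (adjusted p = 0.000277, 0.000133 and 0.00995). The transcription factors Jund and Junb fell by 0.73 ± 0.15 and 0.78 ± 0.18. In contrast Fos differed by 0.03 ± 0.15, and Egr1 was at 11.99 and 11.60 and then at 11.96 and 11.70, and Dusp1 at 13.21 and 13.07 and then at 13.16 and 13.09. The days overlapped in these 3 genes. The calls fell to 3 without day 6 replicate 1 and to 2 without day 18 replicate 2, and with the mean of probe sets Nr4a3 differed by -0.70 without a call.

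Il6 was the only called gene among 14 inflammatory genes (cytokines, chemokines and the enzymes Nos2 and Ptgs2), beside 8.94% of all genes called. It encodes interleukin 6, was at 8.44 and 8.40 at day 6 and at 4.92 and 4.99 at day 18, and so fell 11.1-fold (log2 change -3.47 ± 0.49, adjusted p = 7.1e-05). The arrays of a day agreed within 0.07. Il1b was at 13.07 and 13.01 and then at 12.37 and 12.25 (difference -0.73 ± 0.43), and Il1a differed by -0.99 ± 0.49. Tnf was at 9.87 and 9.71 and then at 9.57 and 9.40, a difference of -0.30 ± 0.34. In all, 13 of the 14 differences were negative and the median was -0.55, with Ccl3 the exception at 0.32 ± 0.18. Leaving out any 1 array left 1 call.

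**Figure D2:**
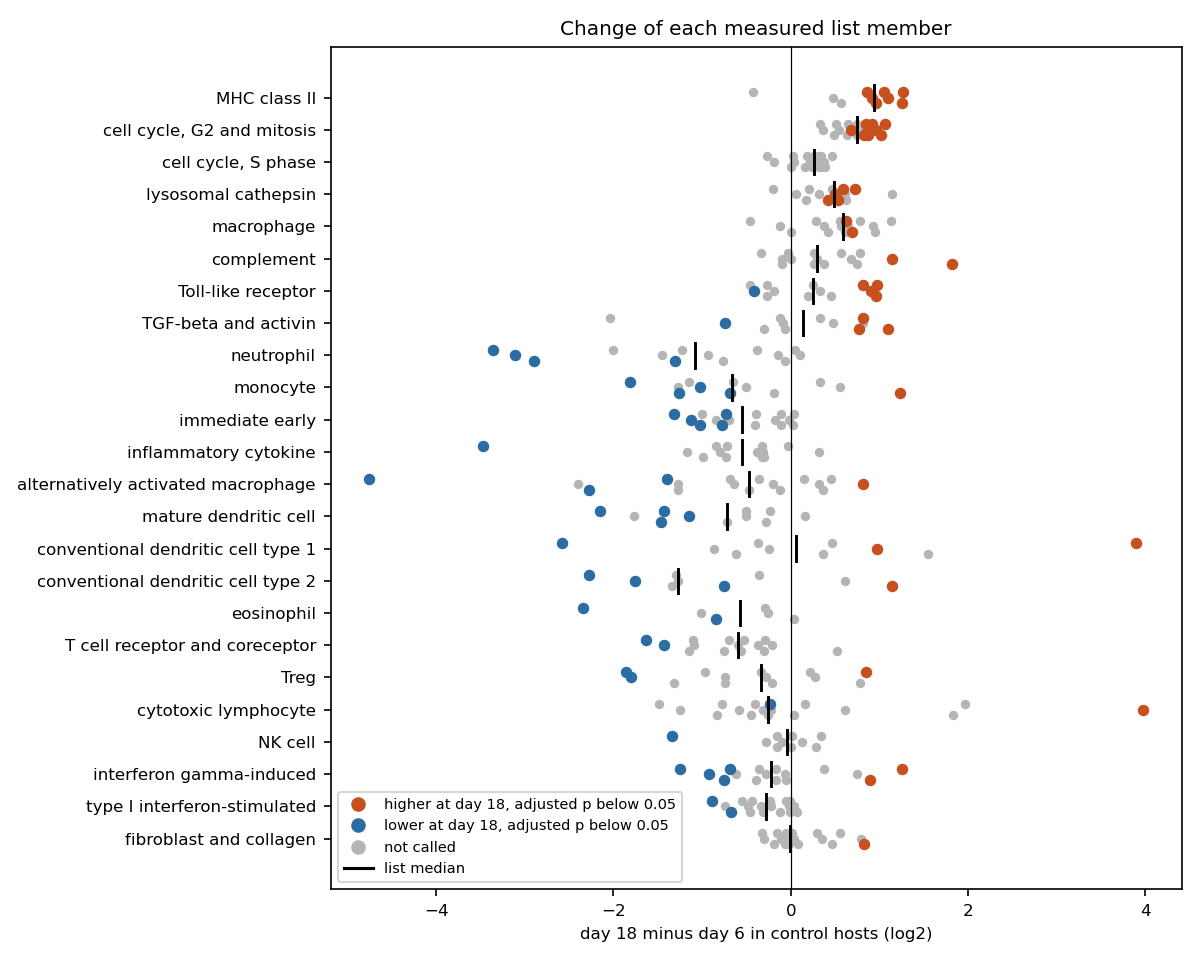
Day 18 minus day 6 difference (log2) of each measured member of 24 gene lists in control hosts; orange and blue points had an adjusted p below 0.05 and were higher or lower at day 18, grey points were not called, and black bars are list medians. The class II and mitotic lists have no called member to the left of 0, and the neutrophil, immediate early and mature dendritic cell lists none to the right.

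Dendritic cell genes moved in both directions. Cadm1, an adhesion molecule of type 1 conventional dendritic cells, had the smallest p of all genes: it was at 5.27 and 5.82 at day 6 and at 9.41 and 9.47 at day 18, a 14.9-fold rise (3.90 ± 0.27, adjusted p = 1.19e-08). All 4 of its probe sets rose, by 2.88 to 4.08. Of the rest of the type 1 list Tlr3 alone rose, as given above. Xcr1, a defining receptor of these cells, was at 3.64 and 3.65 and then at 4.34 and 6.05 (adjusted p = 0.0607), Batf3 differed by 0.47 ± 0.27, and Cd24a fell by 2.58 ± 0.42 from 10.30 and 10.41. The list median was 0.06, and its sign turned under some alternatives. Of 9 type 2 genes 3 fell, namely Irf4 (-1.76, or -1.03 with the mean of probe sets), Cd1d1 and Mgl2, and 1 rose (Itgax), with a median of -1.28. Without any 1 array, 1 or 2 type 1 genes rose, and of the type 2 list 1 fell without day 6 replicate 1, 2 without day 18 replicate 1 and 0 without either other array.

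Of 11 genes of mature, migrating dendritic cells, 4 fell, 0 rose and 7 were not called (median -0.71). Ccl22, which attracts Treg cells through Ccr4, was at 8.16 and 7.93 at day 6 and at 5.83 and 5.95 at day 18 (fall of 2.15 ± 0.43, adjusted p = 0.00207). Fscn1, the actin bundler of dendrites, was at 10.82 and 10.57 and then at 9.51 and 9.59 (adjusted p = 0.0121). Socs2 fell by 1.43 ± 0.25 and Il4i1, an amino acid oxidase, by 1.46 ± 0.36. Ccl17 differed by -1.77 ± 0.62 without passing the threshold, and the costimulatory genes Cd86 and Cd40 by -0.28 and -0.24. Without day 6 replicate 1 or day 18 replicate 1, 2 of these genes were called. With the mean of probe sets Fscn1 differed by -0.54 without a call, and the fall of Socs2 was 0.94.

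Of 15 genes of the T cell receptor and its coreceptors, 2 fell, 0 rose and 13 were not called. Cd28, the costimulatory receptor, was at 8.16 and 8.49 at day 6 and at 6.69 and 7.10 at day 18 (fall of 1.43 ± 0.43, adjusted p = 0.0362), and Cd5, an inhibitory receptor of T cells, fell by 1.63 ± 0.44. Cd3e, a chain of the receptor complex, was at 7.55 and 7.79 and then at 7.03 and 7.26, and Cd3d differed by -0.60 ± 0.40. Cd8a had the only positive difference, 0.52 ± 0.46. The median change of the list was -0.60. Satb1, a chromatin organiser of T cells, fell by 1.63 ± 0.34. Leaving out day 18 replicate 2 left 1 of the 2 calls, and leaving out any other array, or a robust variance trend, left 0.

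Among 13 Treg genes, 2 fell and Nrp1 rose. Il2ra, the high-affinity chain of the interleukin 2 receptor, was at 6.81 and 7.08 at day 6 and at 4.94 and 5.36 at day 18 (fall of 1.80 ± 0.44, adjusted p = 0.0113). Icos, a costimulatory receptor of activated T cells, was at 9.50 and 9.67 and then at 7.55 and 7.90 (adjusted p = 0.0362). Both are shared with other activated T cells. Ebi3, of the same list, was at 8.88 and 8.82 and then at 9.58 and 9.68 (0.78 ± 0.25, adjusted p = 0.0549). Of the 13 differences 9 were negative and 4 positive. Ctla4, also shared, was counted in a list of T cell inhibitory receptors and was at 9.36 and 9.43 and then at 7.66 and 7.91 (adjusted p = 0.0671). In that list 0 of 8 genes were called by limma (2 at an unadjusted p below 0.05), with a median change of 0.24. The Treg cell factor Ikzf2 differed by -0.75 ± 0.35, and Ccr8, like Foxp3, lay near background. Nrp1 is also made by macrophages, dendritic and stromal cells, and its rise in Nrp1-deleted hosts, 0.86 ± 0.23, was as large as in control hosts. Without day 18 replicate 2, 1 Treg gene was called, and without any other array 0.

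Cytotoxic genes held 1 rise and 1 fall among 17, near the 8.94% of all genes called. Gzmf, one of a cluster of closely related granzymes, was at 6.01 and 5.66 at day 6 and at 9.67 and 9.96 at day 18, a 15.7-fold rise (3.98 ± 1.11, adjusted p = 0.0246). The fall was that of Srgn, the proteoglycan of secretory granules, by 0.24 ± 0.07. The neighbours of Gzmf, Gzmd, at 8.91 and 8.30 and then at 10.43 and 10.72, and Gzme, at 8.47 and 7.90 and then at 9.83 and 10.21, had higher values at day 18 without a call, and probes of this cluster may cross-hybridise. Gzmb was at 11.40 and 11.65 and then at 11.14 and 11.39, Prf1, the pore former, at 8.11 and 7.93 and then at 7.95 and 8.17, and Ifng at 9.01 and 9.25 and then at 8.35 and 8.73. The call of Gzmf was lost when any 1 of the 4 arrays was left out (adjusted p 0.104 to 0.149). Among 10 natural killer cell genes 1 fell, Il18rap, a chain of the interleukin 18 receptor, by 1.34 ± 0.29 (not called without day 18 replicate 1), and 0 of 9 B cell genes were called by limma (1 at an unadjusted p below 0.05).

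Genes induced by interferon gamma went both ways, with 2 of 16 rising and 4 falling. Cxcl9, a T cell attractant, was at 11.80 and 11.94 at day 6 and at 12.69 and 12.84 at day 18 (0.89 ± 0.21, adjusted p = 0.00724), and Ciita rose as described above. Irf1, the transcription factor of the early response, fell from 10.97 and 10.96 to 10.26 and 10.16 (0.76 ± 0.16, adjusted p = 0.00307). Cd274, which encodes PD-L1, was at 10.71 and 10.68 and then at 9.73 and 9.82 (adjusted p = 0.0204), and Socs1, the feedback inhibitor, fell by 1.25 ± 0.32. Cxcl10 differed by -0.28 ± 0.18. Of 18 genes of the type I interferon response 2 fell and 0 rose, beside 8.94% of all genes called. These were Cmpk2, by 0.67 ± 0.17, and Rsad2, by 0.89 ± 0.26, and the median was -0.28. Without any 1 array, 1 or 2 of the interferon gamma genes fell and at most 1 rose.

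The 15 largest rises among called genes were led by Gbp2b, a guanylate-binding GTPase of the interferon response. It was at 4.55 and 4.74 at day 6 and at 8.81 and 9.29 at day 18, a 21.1-fold rise (4.40 ± 0.59, adjusted p = 4.79e-05), whereas its relatives Gbp2, Gbp3 and Gbp7 differed by -0.39, -0.06 and -0.05. Klra17, a lectin-like receptor of the Ly49 family, rose by 3.58 ± 0.54 from 5.45 and 4.21, and Tlr12, a sensor of microbial profilin, by 2.52 ± 0.31. Acp5, the tartrate-resistant phosphatase of osteoclasts and macrophages, was at 8.53 and 8.14 and then at 10.36 and 10.49 (2.10 ± 0.28). Gas6, a ligand of Mertk, was at 4.35 and 5.10 and then at 6.81 and 6.75, and lost its call without day 6 replicate 1 or without either day 18 array. With the mean of probe sets the rises of Gas6 and Dst were 1.04 and 0.94. The others, beside Gzmf and Cadm1, were the cytoskeletal genes Myh10, Shtn1 and Dst (2.76, 2.26 and 2.16), the receptor Gpr31b (2.40), the extracellular nuclease Dnase1l3 (2.23), the sulfotransferase Chst1 (2.11), Pgbd5 (2.14) and Astx6 (2.30). Astx6 had the weakest support, at 3.41 and 3.38 and then at 5.03 and 6.37 (adjusted p = 0.0416), and its call was lost in 8 of 12 alternatives.

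The 15 largest falls, beside Ccl24, Il6, S100a9, S100a8 and Hdc, included genes of varied function. B3gnt5, which starts a class of glycosphingolipids, was at 7.73 and 7.39 at day 6 and at 4.43 and 4.38 at day 18 (fall of 3.15 ± 0.29, adjusted p = 5.83e-07). Sgms2, a sphingomyelin synthase, was at 7.99 and 8.11 and then at 4.38 and 4.80, and G0s2, an inhibitor of fat breakdown, at 7.93 and 7.87 and then at 4.45 and 4.39. Olr1, a receptor for oxidised lipoprotein, fell by 3.40 ± 0.52. Timp1, the inhibitor of matrix metalloproteinases, was at 8.89 and 8.96 and then at 5.87 and 5.56 (fall of 3.21 ± 0.41, adjusted p = 2.86e-05), while its relative Timp2 rose by 0.97 ± 0.26 from 9.80 and 9.67. Dmkn, Flrt3, Stfa2l1, Arg2 (the mitochondrial arginase) and Cpm (a membrane carboxypeptidase) fell by 4.08, 3.37, 3.14, 3.04 and 2.89. Among these 15, the calls of S100a9, S100a8 and Hdc were lost without day 6 replicate 1, day 6 replicate 2 or day 18 replicate 2, and that of S100a8 also without day 18 replicate 1, with adjusted p between 0.0593 and 0.214. With a robust variance trend S100a9 and S100a8 were at adjusted p of 0.0519 and 0.0963. S100a8 was also lost with the mean of probe sets (0.0523) and without a variance trend (0.0580).

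**Figure D3:**
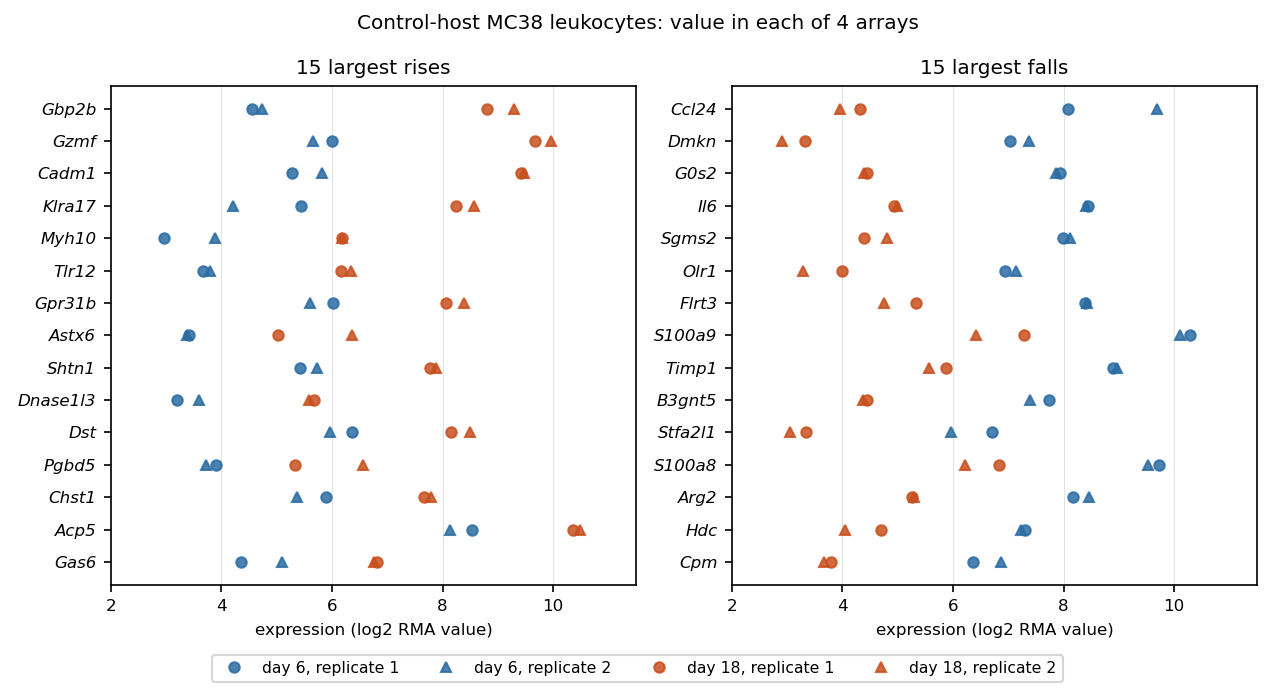
Log2 RMA values of the 15 largest rises (left) and 15 largest falls (right) among called genes in each of the 4 control arrays; blue is day 6, orange day 18, circles replicate 1 and triangles replicate 2. The days separate in all 30 genes, as called genes must, and the arrays of a day lie farthest apart for Ccl24 at day 6 and for Astx6 at day 18.

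Some genes that mark fibroblasts, cells outside the gate, lay well above background on all 4 arrays, and few such markers were called. Which cells made this RNA was not tested. Of 18 fibroblast and collagen genes 1 was called (Pcolce, 0.82 ± 0.26, or 0.46 and not called without day 6 replicate 2). Col3a1 was at 10.44 and 9.80 at day 6 and at 10.66 and 10.51 at day 18, and Sparc at 8.89 and 8.0 and then at 8.43 and 8.40. In 13 epithelial genes, which could mark MC38 cells, 0 were called (0 at an unadjusted p below 0.05), and Epcam and the keratins lay between 2.69 and 4.59. Cdh1, also expressed by some leukocytes, was at 8.37 and 8.92 and then at 7.96 and 7.82. The mast cell protease genes Cpa3 and Cma1 were higher in day 6 replicate 1 (9.12 and 9.09) than in replicate 2 (7.58 and 7.62), as were Hba-a1 (10.36 against 8.73) and most collagen genes. The part of these differences in the results was not tested.

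The same days were compared in Nrp1-deleted hosts, whose means share no arrays with the control comparison, although the pooled error is the same. There 332 of 17097 genes were called (1.94%), 204 higher and 128 lower at day 18. Of the 1528 genes called in control hosts, 1411 (92.3%) had the same sign of change in Nrp1-deleted hosts, beside 63.9% of all genes. In all, 204 genes were called in both with the same sign, which is 13.4% of the control calls and 61.4% of the calls in Nrp1-deleted hosts, and 1, Slamf6, was called in both with opposite signs. The median change of genes that rose was 0.69 in control and 0.36 in Nrp1-deleted hosts, and that of genes that fell -0.80 and -0.27, but these genes were chosen on the control arrays, and no test was made of that difference. The calls in Nrp1-deleted hosts depended on single arrays: 981 without day 6 replicate 1, 95 without day 6 replicate 2, 166 without day 18 replicate 1 and 77 without day 18 replicate 2.

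By group, the mitotic list had a median of 0.75 in control and 0.71 in Nrp1-deleted hosts, with positive differences in 19 of 19 genes in both. Cadm1 rose by 3.90 in control and 4.73 in Nrp1-deleted hosts, Gbp2b by 4.40 and 3.41, Lipa by 1.11 and 1.28, and Tgfbr2 by 0.77 and 0.69, and each was called in both. Timp1 fell by 3.21 and 2.83, Ccl24 by 4.75 and 6.27, Alox15 by 2.35 and 2.85 and Socs2 by 1.43 and 1.5, again called in both. The class II list had medians of 0.94 and 0.28, and 0 of its 10 genes were called in Nrp1-deleted hosts. Ciita, up by 1.25 in control hosts, differed by -0.02 ± 0.32 there. The difference between hosts was called in 0 of the class II genes.

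The change itself differed between hosts in 14 genes (0.0819% of those tested), 13 of them also called in control hosts. In 11 of the 14 the change was more negative in control hosts, and in 3 less so. That split was 4 and 3 with cyclic loess, 2 and 2 with 75th percentile centring, 1 and 1 without a variance trend, and 3 and 0 with the mean of probe sets. B3gnt5 fell by 3.15 in control hosts and differed by -0.95 in Nrp1-deleted hosts, where it was at 7.46 and 7.96 at day 6 and at 6.83 and 6.69 at day 18. Fosl2, a partner of Jun, was at 10.48 and 10.27 and then at 8.88 and 8.64 in control hosts, and at 10.27 and 10.71 and then at 10.40 and 10.18 in Nrp1-deleted hosts. The day 18 control arrays alone stood low, and with the mean of probe sets the fall of Fosl2 was 1.07. Il6 fell by 3.47 in control hosts and differed by -0.75 in Nrp1-deleted hosts, from 8.65 and 9.10 to 8.56 and 7.69. The difference of 2.71 ± 0.69 did not pass over all genes (adjusted p = 0.168), and that of Dmkn, 3.12 ± 0.84, did not either (adjusted p = 0.209).

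In the other direction, Ccl8, a chemokine of tissue macrophages, had a difference of 0.45 ± 0.46 in control hosts and fell by 3.03 ± 0.46 in Nrp1-deleted hosts. It was at 9.91 and 10.84 at day 6 and at 10.58 and 11.07 at day 18 in control hosts. In Nrp1-deleted hosts it was at 11.71 and 12.73 and then at 8.98 and 9.40, so the day 6 arrays of the hosts differed as well. Slamf6, a receptor of lymphocytes, rose by 0.82 ± 0.21 in control and fell by 0.85 ± 0.21 in Nrp1-deleted hosts, and Eya4 rose by 2.01 ± 0.18 and differed by 0.49 ± 0.18. With the mean of probe sets Slamf6 differed by 0.43 in control hosts (adjusted p = 0.253) and Eya4 rose by 0.9. Without day 6 control replicate 1 the control value of Ccl8 was -0.01. These 14 calls depended on the fit, from 0 to 122 when 1 of the 8 arrays was left out, the 122 without day 6 Nrp1-deleted replicate 2.

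**Figure D4:**
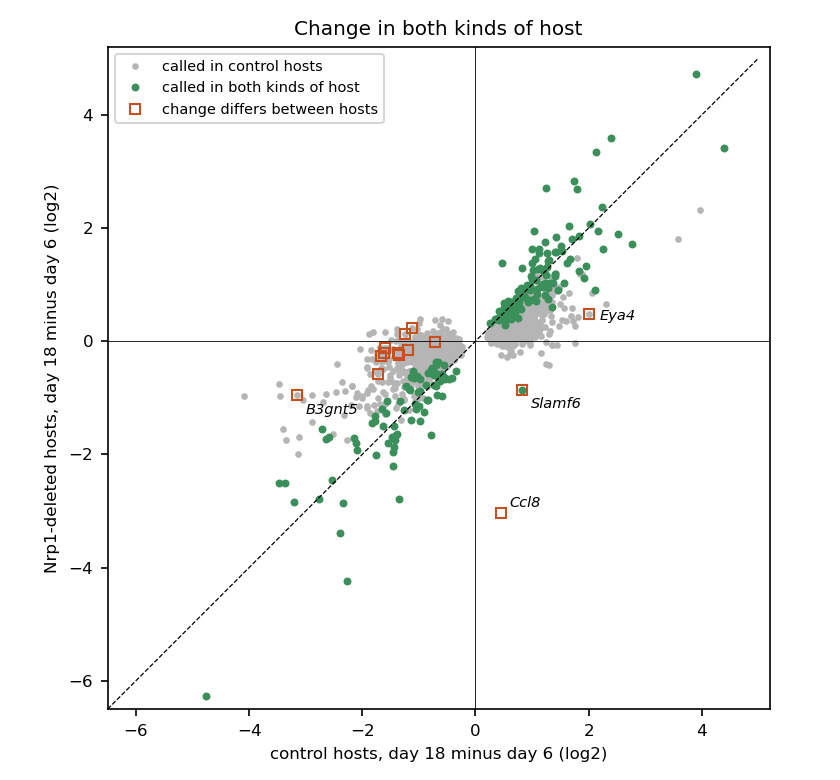
Day 18 minus day 6 difference (log2) in control hosts (x axis) and in Nrp1-deleted hosts (y axis) for the 1528 genes called in control hosts (grey), those called in both (green) and the 14 genes whose change differed between hosts (orange squares); the dashed line marks equal change. Most called genes lie on the same side of 0 in both, B3gnt5 and 10 others lie above the line, and Ccl8, Slamf6 and Eya4 lie below it.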

How the data were processed

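RNA of sorted CD45+ cells was hybridised to Affymetrix arrays after two-cycle amplification, per the labels' protocols. The deposited values are log2 intensities. Per the submitters' processing notes, Partek 6.6 made them with RMA. RMA pulls arrays to a common distribution and compresses the brightest and dimmest genes. Of 45141 probe sets, 28898 name 1 gene, 551 several and 15692 none. Each of 17097 genes was represented by its brightest probe set, taken over 28 arrays. limma 3.58.1 (R 4.3.3) fitted the 12 group means on all 28 arrays with a variance trend. Benjamini-Hochberg adjustment ran over all 17097 genes at 0.05. A simulation of the control comparison shifted 200 of 17097 genes, with independent noise. Genes shifted by 0.5 log2 were found in 29.9%, by 1 in 79.1% and by 2 in 100% of cases. False calls made up 6.08%. The data held 1528 calls, so the simulated share of changed genes may differ and these rates may not carry over. Named genes were the 15 largest rises and 15 largest falls among called genes whose days did not overlap and whose higher mean passed the median of all values, predicted and unnamed genes aside. List members and the called host differences were named too. The groups and lists were chosen with earlier results of these data known. The number of arrays limits the precision. MC38 day 12 arrays entered the pooled error and the choice of probe sets, and their values were not compared here.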

Additional observations from a re-analysis of the deposited data

Results flagged for a closer look

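In 14 genes the change from day 6 to day 18 differed between Nrp1-deleted and control hosts by the test of that difference (limma, adjusted p below 0.05 over 17097 genes). The values below are the change in Nrp1-deleted hosts minus that in control hosts on the log2 scale, with 2 arrays per host and day. The glycosphingolipid enzyme B3gnt5 differed by 2.2 and Fosl2, a partner of Jun, by 1.42. Ppp1r10, a nuclear regulator of protein phosphatase 1, differed by 1.49, and the transcriptional repressors Rybp and Nkrf by 1.4 and 1.37. The nuclear receptor Nr4a2 differed by 1.35, the tyrosine kinase Abl2 by 1.16 and Gramd4 by 1.15. Prdm2, a histone methyltransferase gene, differed by 1.11, Pcf11, which acts in ending transcription, by 1.03 and Eif5, a factor of translation initiation, by 0.70. In these 11 genes the change was more negative in control hosts. With the mean of probe sets the fall of Nkrf in control hosts was 0.59, against 1.25. The opposite sign was seen for Eya4 (-1.52), the lymphocyte receptor Slamf6 (-1.68) and the chemokine Ccl8 (-3.49). Nr4a2 has 5 probe sets, whose changes in control hosts ranged from -1.60 to 0.34.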

How the results depend on the processing

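The count of control genes called stayed within 1290 to 1764 under a filter on dim genes, the mean of probe sets, cyclic loess, 75th percentile centring, other variance models, a fit on the 8 MC38 arrays and a replicate block (1513; 348 in Nrp1-deleted hosts and 12 for the host difference), against 1528. It was 2692 with the 4 control arrays alone, where 2 residual degrees of freedom carry the error, and 663 to 711 without 1 of the 4 arrays. No label says that arrays with the same replicate number were paired. Deviations of same-numbered control arrays correlated at -0.011 over genes. A single correlation of this kind cannot show whether a pairing existed. In Nrp1-deleted hosts the count was 77 to 981 without 1 array. For the host difference it was 3 with the mean of probe sets, 7 with cyclic loess, 4 with 75th percentile centring, 2 without a variance trend, 33 on the 8 arrays, and 0 to 122 without 1 array; where limma gave 0, 937 to 1044 genes had an unadjusted p below 0.05. The cause of these moves was not tested, beyond the smaller number of arrays. Of 125 genes called in the control comparison and either named by size or in a list, 0 changed sign in any alternative run. Of these, 47 kept their call in each one that gave a value, 27 lost it with the mean of probe sets, 24 with a robust variance trend and 60 to 68 without 1 array. Ccl8, not called in control hosts, went from 0.45 to -0.01 without day 6 control replicate 1. Genes near background have compressed differences.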

Other observations

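Genes of energy and lipid metabolism changed little as groups, with single members that did. Of 13 glycolytic genes 1 was called, Pfkp, a phosphofructokinase, which fell by 0.45 ± 0.11 (adjusted p = 0.0118, or by 0.78 with the mean of probe sets), and Ldha was at 12.21 and 12.10 at day 6 and at 12.22 and 12.24 at day 18. Of 19 respiratory chain genes 2 fell and 1 rose. Ndufa4 was at 10.42 and 10.37 and then at 9.51 and 9.77 (fall of 0.75 ± 0.12, adjusted p = 0.000158), while Sdha rose by 0.36 ± 0.10, although 1 of its other bright probe sets differed by -0.01. Fads1, a fatty acid desaturase, was the 1 gene of 12 of fatty acid synthesis to be called, from 7.74 and 7.67 to 8.84 and 8.75 (adjusted p = 0.00207). Its rise was 0.69 with the mean of probe sets. It was called in Nrp1-deleted hosts too, with a rise of 0.84 ± 0.22. In cholesterol synthesis 1 of 17 genes fell (Cyp51, by 0.82 ± 0.24), and 13 of the 17 differences were negative.

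Of 14 genes of the hypoxia response 1 rose and 1 fell, beside 8.94% of all genes called. Adm, which encodes the vessel-dilating peptide adrenomedullin, was at 4.06 and 3.67 at day 6 and at 5.79 and 5.64 at day 18 (rise of 1.84 ± 0.32, adjusted p = 0.000554). Hif1a, the oxygen-sensitive factor itself, fell by 0.54 ± 0.13, a call lost without day 6 replicate 1, day 6 replicate 2 or day 18 replicate 2 and with the mean of probe sets. Vegfa was at 10.69 and 10.45 and then at 9.90 and 9.75 without passing the threshold. Among 13 matrix metalloproteinase and inhibitor genes, Mmp19 fell by 2.19 ± 0.49 and Mmp3 by 0.78 ± 0.22 besides Timp1. Mmp13 and Mmp12 had higher values at day 18 (differences 1.4 ± 0.72 and 0.78 ± 0.47) that were not called. In the stress responses Atf4 fell by 0.61 ± 0.12 and Dnaja1 by 0.71 ± 0.21 (0.47 and not called without day 6 replicate 2), each the 1 call of its list of 13 and 9 genes.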
